A study of Mus musculus with 2 samples.

Results

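Epidermal differentiation keratins and cornified envelope genes were followed in single epithelial cells of newborn mouse back skin. The group held 8 genes, Krt1, Krt10, Krt77, Krtdap, Dmkn, Sbsn, Lor and Ly6d, chosen by symbol from the 32285 genes listed in the files, and all 8 were found. 1 library labelled WT and 1 library labelled PADI4 cKO were made with Chromium 3′ v3.1 chemistry from tdTomato-positive cells of postnatal day 1 back skin, and both were given as batch 1. Padi4 encodes an enzyme that turns protein arginine into citrulline. In the cKO, Cre driven by the Krt14 promoter of basal keratinocytes acts on floxed Padi4 alleles (Padi4 fl/fl) and on the Ai14 tdTomato reporter, so that reporter-positive cells are those with a history of Krt14-Cre. The protocol given for both libraries names K14-Cre Padi4 fl/fl mice, the genotype label of the control reads WT without its alleles, and the number and sex of the animals behind each library are not given in the sources used here. The epidermis was peeled off after dispase and the dermal fraction with its hair follicles (HFs) was dissociated, so the epidermal cells measured here are those that stayed with that fraction, and peeling and genotype cannot be told apart as sources of their number. Levels are given in CPM, the unique molecular identifiers (UMIs, 1 per captured mRNA molecule) of a gene scaled to 1000000 UMIs of the same cells. With 1 library per genotype no difference between them could be tested, and the 95% intervals given here cover counting error only.

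In the epidermis, keratinocytes leave the basal layer, lose the basal keratins Krt5 and Krt14, and switch on the suprabasal pair Krt1 (type II) and Krt10 (type I), whose proteins pair to form the filaments of the spinous layer. Krtdap (keratinocyte differentiation-associated protein), Dmkn (dermokine) and Sbsn (suprabasin) encode secreted proteins of differentiating keratinocytes. Lor encodes loricrin, a main protein of the cornified envelope of the granular layer. Krt77 is a further type II keratin, and Ly6d is a lipid-anchored surface protein of stratified epithelia. The upper HF, continuous with the epidermis at the hair canal, has differentiating cells of its own that are marked by Krt79.

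After filtering, 8069 cells remained in WT and 7394 in the library labelled PADI4 cKO. Of these, 7994 and 7357 were epithelial, with medians of 14687.5 and 16206 UMIs per epithelial cell. 14 cell barcodes occurred in both libraries. Padi4 itself had 98 and 92 UMIs in the epithelial cells (0.770 and 0.710 CPM), and since 3′ counts do not show whether the floxed part was removed, they did not set the libraries apart. Sex-linked genes did. In the WT library, 26.7% of epithelial cells held Xist UMIs without Y-linked UMIs and 59.8% the reverse, whereas in the library labelled PADI4 cKO 99.7% held Xist alone and 0% Y-linked UMIs alone. Sex and genotype label therefore cannot be told apart for most WT cells, and values for cells with Xist alone are given beside the library comparisons. The 8 genes took 92911 UMIs in the WT epithelial cells (0.0730% of all UMIs) and 54235 UMIs in those of the other library (0.0419%).

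The genes lie in 5 places of the GRCm38 genome in the GENCODE vM21 annotation. Sbsn (chr7:30751471-30756134), Dmkn (chr7:30763756-30781063) and Krtdap (chr7:30787896-30791097) follow one another on the plus strand. Krt1 (chr15:101845426-101850794) and Krt77 (chr15:101858731-101869705) are neighbors on the minus strand, 7936 bases apart. Krt10 (chr11:99385254-99389364), Ly6d (chr15:74762056-74763620) and Lor (chr3:92080271-92083142) lie elsewhere, all on the minus strand. Sbsn overlaps Tmem147os on the same strand, with which 22.5% of the 31-base stretches at its transcripts' last 500 bases are shared, so its counts are uncertain. Krt10 holds the antisense gene Gm11940, and whether reads were counted by strand is not given in the sources used here. For Krt77 the shared part was 1.75%, with Krt79 among the genes that share it. For Krt1, Krt10, Krtdap, Dmkn, Lor and Ly6d the shared part was 0%.

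The promoters are shown because the neighbors Krtdap, Dmkn and Sbsn did not all have their highest CPM in the same cluster of cells. RefSeq promoters (GRCm38.p6) matched 6 of the 8 genes and not Krt1 and Ly6d. The 140 bases before each start are given 5′ to 3′ on the gene's strand, with matches to TGANTCA, a site of AP-1 factors, in capitals. They come from chr11:99389365-99389504, minus strand for Krt10, chr15:101869706-101869845, minus strand for Krt77, chr7:30787765-30787904, plus strand for Krtdap, chr7:30763616-30763755, plus strand for the first start of Dmkn, chr7:30751331-30751470, plus strand for Sbsn and chr3:92083143-92083282, minus strand for Lor:
Krt10: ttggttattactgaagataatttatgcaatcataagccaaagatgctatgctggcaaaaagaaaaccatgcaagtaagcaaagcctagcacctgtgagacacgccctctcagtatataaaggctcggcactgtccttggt
Krt77: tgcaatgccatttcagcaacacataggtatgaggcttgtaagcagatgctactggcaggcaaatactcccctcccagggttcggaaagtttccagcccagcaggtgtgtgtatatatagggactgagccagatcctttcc
Krtdap: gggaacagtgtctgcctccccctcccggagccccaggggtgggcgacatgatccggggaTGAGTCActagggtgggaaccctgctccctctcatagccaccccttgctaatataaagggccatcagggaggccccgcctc
Dmkn: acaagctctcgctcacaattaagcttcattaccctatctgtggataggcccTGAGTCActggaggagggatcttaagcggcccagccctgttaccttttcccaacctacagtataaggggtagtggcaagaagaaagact
Sbsn: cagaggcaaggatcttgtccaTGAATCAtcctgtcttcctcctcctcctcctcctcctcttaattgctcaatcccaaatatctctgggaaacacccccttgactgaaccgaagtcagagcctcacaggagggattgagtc
Lor: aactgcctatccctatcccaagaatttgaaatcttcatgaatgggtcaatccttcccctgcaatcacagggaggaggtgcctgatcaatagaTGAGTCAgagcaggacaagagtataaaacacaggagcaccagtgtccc

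TGANTCA, which reads the same on both strands, stood within the 250 bases before the start in 4 of the 6 genes. Counted from the start to the first base of the match, it lay 81 bases upstream in Krtdap, 89 in Dmkn, 119 in Sbsn and 48 in Lor, and the keratins Krt10 and Krt77 had no match in this window. A start of Dmkn further inside the gene had a match 82 bases upstream. Of all 32851 promoter windows of 250 bases, 6.75% held this motif on either strand. The TATA box letters TATAAA, searched on both strands, stood in Krt10 (26 bases upstream), Krtdap (30) and Lor (27), against 12.4% of all windows. These matches are letters in a window and were not tested for binding.

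To place the genes among the cell types, the cells of both libraries were clustered together without the 8 genes. Of the 24 clusters, 2 held fibroblasts and melanocytes and 19 epithelial clusters had at least 50 cells in each library. In 5 clusters at least 4 markers of suprabasal epidermis or upper HF were raised (1.5-fold and 5 CPM or more). No sheath, shaft or gland list was ahead in them, and fewer than 4 inner root sheath or hair shaft markers were raised. That limit left out a cluster led by Krt73 and Krt71, with 11 of 12 suprabasal and 7 inner root sheath markers raised. It also left out a cluster led by Krt75, with 9 and 5. One of the 5 was led by the stefin genes Stfa3 and Stfa1 with Krt1, Ly6d and Krtdap. Raised in it were 8 of 10 basal markers and 6 of 10 upper HF markers (Krt79, Plet1, Cst6, Gata6, Lrig1 and Klk10). So were 4 of 12 suprabasal markers (Calm4, Asprv1, Elovl4 and Lgals3). It is called the stefin cluster because no one list stands for it. It held 581 cells in WT (7.27%, 95% interval 6.71 to 7.86%) and 166 in the library labelled PADI4 cKO (2.26%, 1.93 to 2.62%). Another of the 5, led by Pparg, Sema3a and Aldh3a1, is called the Pparg cluster. It had 5 of 10 upper HF markers (Krt79, Plet1, Cst6, Gata6 and Lrig1) but no suprabasal marker raised, together with 2 sebaceous gland markers. It held 579 and 602 cells (7.24% and 8.18%).

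The 8 genes divided into those held by the stefin cluster and those spread through the HF. At 2-fold or more above the other epithelial cells of the same library, 7 of the 8 genes were higher in the stefin cluster of the WT library, where 6.61% of all genes were, and 7 of 8 in the library labelled PADI4 cKO, where 5.87% were. Sbsn missed this level in WT (1.65-fold) and Lor in the library labelled PADI4 cKO (1.30-fold).

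Krt1, the suprabasal type II keratin, reached 422 CPM (409 to 437) in the WT stefin cluster and 66.1 CPM (56.8 to 76.6) in that of the library labelled PADI4 cKO. In the 17 further epithelial clusters other than the Pparg cluster it lay between 1.32 and 9.19 CPM in WT and between 0 and 6.43 CPM in the other library. Free RNA, taken from droplets under 100 UMIs and scaled by collagen UMIs in epithelial cells, could account for 14.5 CPM of Krt1 in WT. By this limit 1 of the 19 clusters, the stefin cluster, stood above it. In the library labelled PADI4 cKO that limit was 0.664 CPM, and 7 clusters stood above it. The highest level of Krt1, Krt10, Krt77, Krtdap and Ly6d was in the stefin cluster in both libraries, and this held for each of these 5 genes in all 10 alternatives once the stefin cluster was kept whatever its size. Krt77 showed a like pattern, with 29.9 CPM (26.3 to 33.8) and 26.01 CPM (20.3 to 32.9) in the stefin cluster, 4.96 and 4.69 CPM in the Pparg cluster, and at most 3.17 and 1.06 CPM in the 17 others.

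Krt10, the partner of Krt1, did not. In the stefin cluster it reached 436 CPM (421 to 450) in WT and 71.7 CPM (61.95 to 82.6) in the library labelled PADI4 cKO. In the 17 other clusters it ran from 22.2 to 49.3 CPM (median 37.5) in WT and from 22.1 to 47.4 CPM (median 34.6) in the other library. Fibroblasts, a cell type without a keratin network, showed 26.6 CPM (16.5 to 40.7) and 20.9 CPM (10.0 to 38.5) as well. In WT, a Krt10 UMI was found in 42.6% of WT epithelial cells and in 34.7% of the 49 fibroblasts, at median depths of 14687.5 and 13757 UMIs. This level was above the free-RNA limit of 18.4 CPM in 18 of the 19 WT clusters and above 3.37 CPM in all 19 of the library labelled PADI4 cKO, and its source was not tested. Counts of cells with a single Krt10 UMI are therefore not read as suprabasal cells here.

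Krtdap, Dmkn and Ly6d were more widespread, above the free-RNA limit in 9, 17 and 7 of the 19 WT clusters and in 12, 17 and 9 of the other library. A Ly6d UMI was found in 22.7% of WT epithelial cells and in 26.5% of fibroblasts, so single UMIs of Ly6d are not read as expression. For Krtdap these shares were 23.6% and 12.2%, and for Dmkn 66.3% and 4.08%. Krtdap reached 1095 CPM (1072 to 1117) in the WT stefin cluster and 815 CPM (781 to 850) in the other library, followed by the Pparg cluster (290 and 354 CPM) and a cluster with sebaceous genes led by Far2, Soat1 and Cidea (199 and 230 CPM), and its lowest cluster lay at 3.08 and 1.62 CPM. The intervals of the Pparg and sebaceous levels did not overlap in either library. The stefin cluster level of Dmkn in WT (1018 CPM, 996 to 1040) could not be told from that of a cluster led by Krt75, the keratin of the companion layer around the inner root sheath (990 CPM, 948 to 1032). In the library labelled PADI4 cKO the Krt75 cluster (999 CPM) and the inner root sheath cluster led by Krt73 and Krt71 (754 CPM) stood above the stefin cluster (690 CPM, 659 to 723). Ly6d reached 1586 CPM (1559 to 1613) and 698 CPM (667 to 730) in the stefin cluster, with the Krt75 cluster second (554 and 345 CPM) and then the Pparg cluster (269 and 183 CPM).

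Sbsn, encoded beside Dmkn, had another center. It stood above the free-RNA limit in all 19 clusters of both libraries. Its highest level was in the sebaceous cluster, with 354 CPM (317 to 394) in WT and 281 CPM (248 to 316) in the library labelled PADI4 cKO, then in the Krt75 cluster (161 and 142 CPM), and only 58.3 and 70.6 CPM in the stefin cluster. Lor, the late envelope gene, was low in all clusters. It still stood above its free-RNA limits of 0.409 and 0.327 CPM in 15 of the 19 WT clusters and 13 of the other library. It had 491 and 316 UMIs over all epithelial cells and never more than 5 UMIs in a cell. Its highest cluster was one led by Ednra and Krtap8-1, a hair keratin-associated gene (18.8 CPM, 15.8 to 22.1, in WT and 11.5 CPM, 8.86 to 14.8, in the other library), whereas the stefin cluster had 7.20 and 2.97 CPM.

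**Figure D1:**
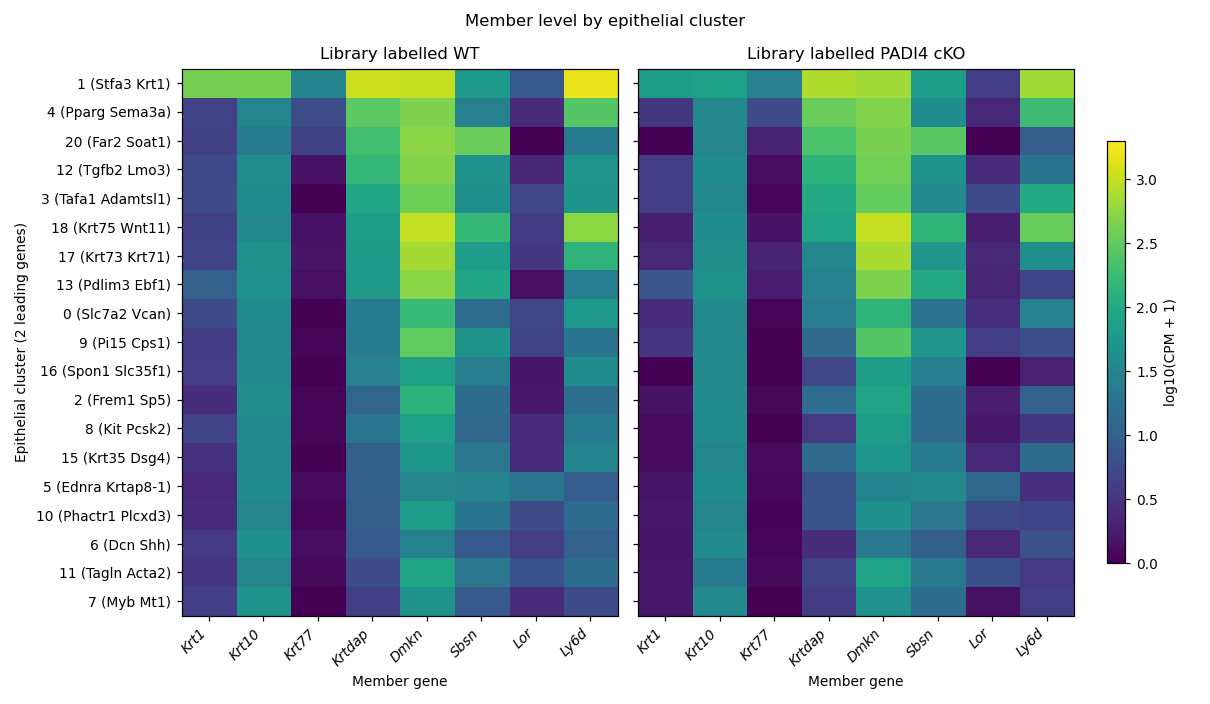
Level of each gene (columns) in the 19 epithelial clusters with at least 50 cells in each library (rows, with their number and 2 leading genes, ordered by mean Krtdap level), as log10(CPM + 1) by color, for the library labelled WT (left) and PADI4 cKO (right). Krt1 and Krt77 are highest in cluster 1, the stefin cluster, Krt10 lies between 22.1 and 49.3 CPM in all others, cluster 4 (the Pparg cluster) included, and Krtdap, Dmkn, Sbsn and Ly6d spread over HF clusters.

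The high levels of Krt1 and Krt10 came from very few cells. In WT, 6 of 7994 cells held 50% of the 4000 Krt1 UMIs, and a single cell held 647 (16.2%). 27 WT cells (0.338%, 0.223 to 0.491%) had 10 or more Krt1 UMIs, 25 of them in the stefin cluster, against 3 of 7357 cells (0.0408%, 0.00841 to 0.119%) in the library labelled PADI4 cKO, where 1 cell with 110 UMIs held 32.1% of all 343 Krt1 UMIs. Krt10 had 22 and 3 such cells, and 19 and 2 cells had 10 or more UMIs of both keratins. By contrast, 538 and 287 cells had 10 or more Krtdap UMIs, 1270 and 925 cells did so for Dmkn, and 576 and 198 cells for Ly6d. For Dmkn, 803 WT cells were needed to reach 50% of its UMIs.

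In 21 cells of the WT library and 1 of that labelled PADI4 cKO, Krt1 and Krt10 together had 50 or more UMIs. Krt1 ranged from 40 to 647 UMIs (median 102) and Krt10 from 2 to 690 (median 141) in the 21 WT cells. The share of Krt1 in the UMIs of the pair was 50.2% over these WT cells together and ran from 21.7% to 96.8% among single cells. Cells that were high for Krt1 alone lay at the upper end of that range. Krtdap (19 to 182 UMIs), Dmkn (18 to 97) and Ly6d (23 to 239) were present in each of the 21 cells, whereas Lor had 0 UMIs in all of them. Scrublet called 0 of these cells doublets.

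The same cells fell into kinds by Krt79, the upper HF keratin. 12 of the 21 WT cells had 0 Krt79 UMIs and 8 had 10 or more (29 to 348), with 1 cell between. In the 12 cells without Krt79, Krt77 had at most 1 UMI, while in the 8 cells rich in Krt79 it ranged from 2 to 35 UMIs. The single such cell of the library labelled PADI4 cKO was of the second kind, with 57 Krt79, 110 Krt1, 55 Krt10 and 4 Krt77 UMIs. 5 WT cells had 0 or 1 UMI of Krt14, the basal keratin, and 0 of Krt79, and these held 1507 Krt1 and 1594 Krt10 UMIs together, with Krt1 from 121 to 647 and Krt10 from 182 to 690. The other 16 WT cells kept 24 to 333 Krt14 UMIs beside Krt1 and Krt10. Both keratins were thus found with and without the basal keratin in the same cell.

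**Figure D2:**
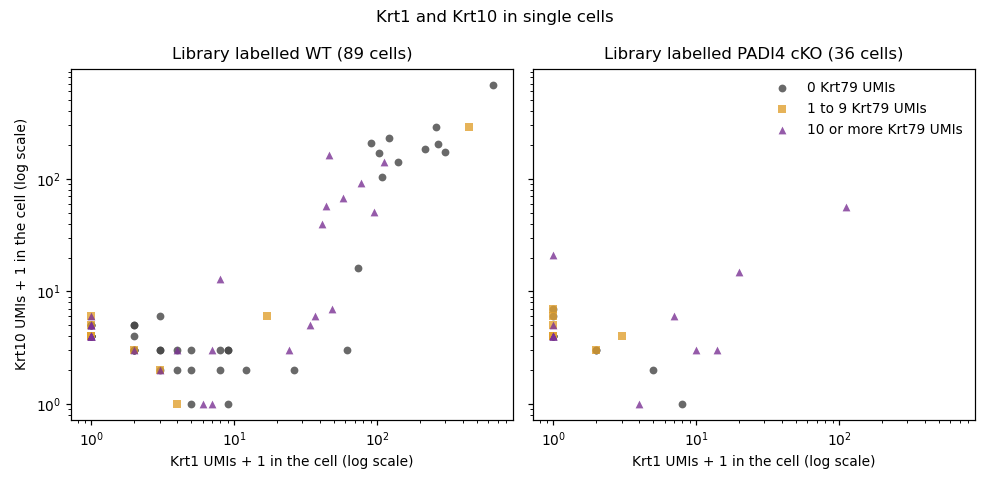
Krt1 UMIs (x axis) and Krt10 UMIs (y axis) of each cell of the 5 clusters with 3 or more UMIs of the pair, both plus 1 on log scales, for the library labelled WT (89 cells) and PADI4 cKO (36 cells). Gray circles have 0, yellow squares 1 to 9 and purple triangles 10 or more Krt79 UMIs. The WT cells with most Krt1 and Krt10 have 0 to 9 Krt79 UMIs, and the single high cell of the library labelled PADI4 cKO is rich in it.

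To follow the genes from basal to suprabasal cells, the cells of the 5 clusters (1309 in WT and 863 in the other library) were ordered by the share of 10 basal markers (Krt5, Krt14, integrins and laminins among them) in their UMIs and cut into 6 bins. Along this order Krtdap, Dmkn and Ly6d were lower in the least basal than in the most basal bin. Krtdap went from 1358 CPM in the most basal bin to 225 CPM in the least basal one in WT, and from 1601 to 197 CPM in the library labelled PADI4 cKO. Dmkn went from 1093 to 345 CPM and from 880.0 to 322 CPM, and Ly6d from 1828 to 322 CPM and from 888 to 182 CPM. Of the 8 genes, 0 were higher in the least basal bin in both libraries. In WT, Krt10 stood at 312 CPM in both end bins and Krt1 at 336 CPM (318 to 355) and 255 CPM (239 to 272). Between these ends both keratins were lowest in bin 3 (Krt1 41.3 CPM, Krt10 67.2 CPM). They stood at 184 and 178 CPM in bin 4 and at 187 and 195 CPM in bin 5. In bins 4, 5 and 6, 1 cell held 53.5%, 89.1% and 70.6% of the Krt1 UMIs and 42.4%, 55.4% and 61.6% of the Krt10 UMIs. In the library labelled PADI4 cKO both keratins were lower in the least basal than in the most basal bin (305 and 1.89 CPM for Krt1, 182 and 39.2 CPM for Krt10). With the basal keratins left out of the index, 4 genes (Krt1, Krt10, Krt77 and Sbsn) were higher in the least basal bin in both libraries, and with the ratio of the basal to the suprabasal list 7 were. The most basal bin was mainly stefin cluster in WT (259 of 318 cells) but not in the other library (16 of 44 cells), so this order ran between clusters as much as within one.

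Within the stefin cluster alone, ordered by its share of 12 suprabasal markers that leave out the 8 genes, 7 of the 8 genes were higher in the last than in the first bin in both libraries. This order was chosen after the first had been seen. In WT, Dmkn reached 0.5 of its highest bin in bin 3 and went from 647 to 1661 CPM (2.57-fold) between the first and last bins. Krtdap reached that level in bin 5 and went from 559 to 2075 CPM (3.71-fold), but its interval in bin 3 (976 to 1082 CPM) included that level as well, so that it could not be placed after Dmkn. Ly6d reached it in bin 6 and went from 859.6 to 3449 CPM (4.01-fold). In the library labelled PADI4 cKO the order was another, with Dmkn and Ly6d at that level in bin 5 and Krtdap in bin 6. These genes were thus already abundant in cells with few suprabasal transcripts.

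The keratins were high in the last bin. Krt1 stood at 5.49, 4.69, 13.99, 5.90 and 16.3 CPM in the first 5 bins of the WT stefin cluster and at 2461 CPM (2379 to 2544) in the last, which held 106 cells. Krt10 went from 42.3 CPM in the first bin, its level in the rest of the epithelium, to 2413 CPM (2332 to 2495), and Krt77 from 2.35 to 113 CPM. Sbsn went from 25.1 to 183 CPM, also in the last bin. Lor did not follow, with 7.84 CPM (3.76 to 14.4) in the first and 5.70 CPM (2.46 to 11.2) in the last bin. Basal transcripts were highest in that same bin, at 21428 CPM against 8509 CPM in the first.

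In the library labelled PADI4 cKO the last bin held 18 cells and was the highest for the same 7 genes, with Krt1 from 1.88 to 703 CPM, Krt10 from 60.3 to 461 CPM, Krt77 from 3.77 to 295 CPM, Krtdap from 592 to 3026.5 CPM, Dmkn from 567 to 1679 CPM, Sbsn from 33.9 to 515 CPM and Ly6d from 413 to 2185 CPM. Lor had 0 UMIs in both bins, which leaves up to 6.95 and 16.5 CPM at the 95% bound. A single cell held 70.1% of the Krt1, 53.4% of the Krt10, 54.5% of the Krt77 and 74.8% of the Sbsn UMIs of that bin, so the keratin levels there describe few cells. Krt79 reached 6013 CPM in that bin and 1906 CPM in its WT counterpart, so the bins differ in how much upper HF they hold.

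**Figure D3:**
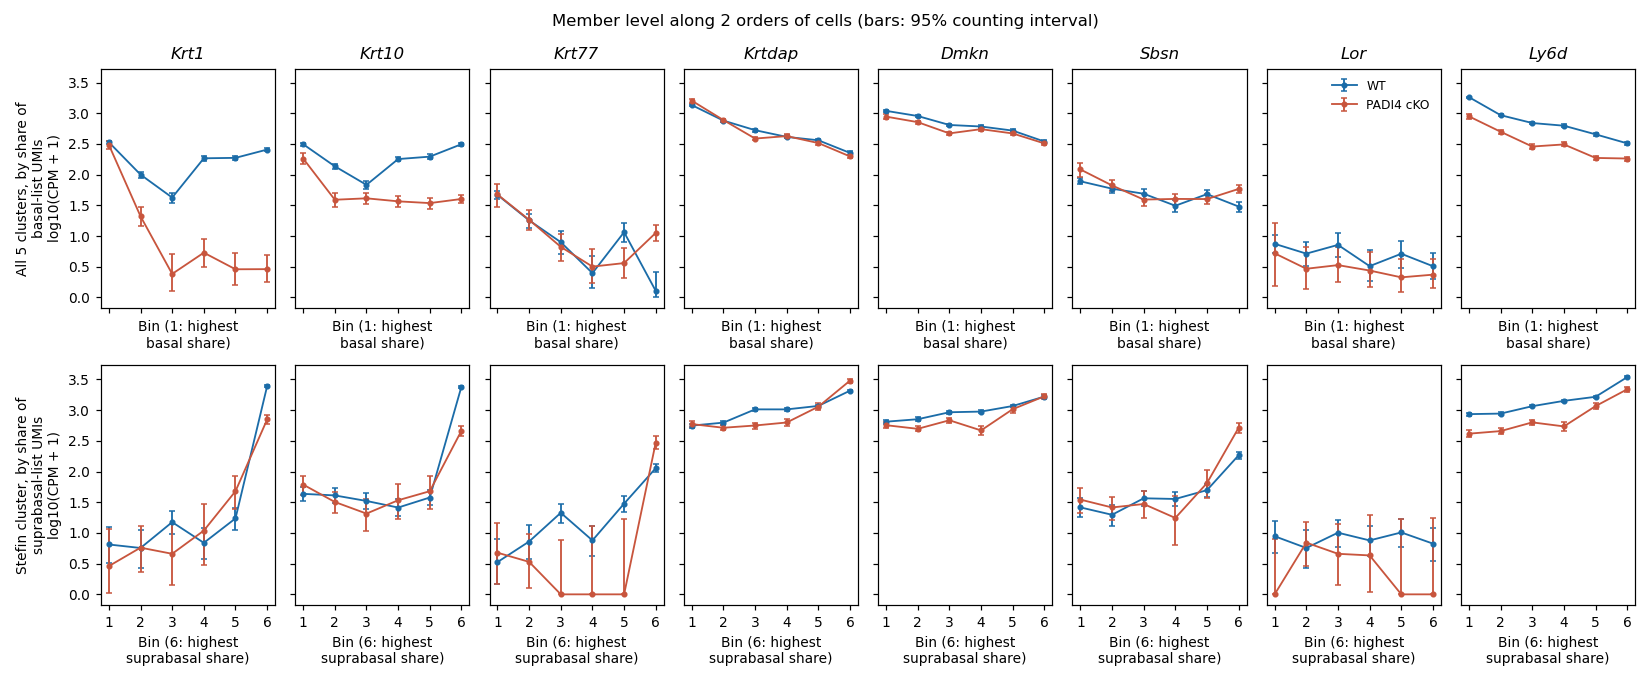
Level of each gene as log10(CPM + 1) in 6 bins of cells, for the libraries labelled WT (blue) and PADI4 cKO (red), with 95% counting intervals. In the upper row the cells of 5 clusters run from the highest to the lowest share of basal-list UMIs and Krtdap, Dmkn and Ly6d go down. In the lower row the stefin cluster runs from the lowest to the highest share of suprabasal-list UMIs, Dmkn, Krtdap and Ly6d of WT go up over several bins, and Krt1 and Krt10 in the last.

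In cells of the 5 clusters thinned to 2000 UMIs each, 52 WT cells held a Krt1 UMI, and 84.6% (71.9 to 93.1%) of them also held Krtdap, 84.6% Dmkn and 88.5% Ly6d, against 50.1%, 62.9% and 48.4% of all 1309 cells. In the reverse direction, 6.71% (4.92 to 8.90%) of the 656 cells with Krtdap held Krt1. Krt10 was found in 51.9% (37.6 to 66.0%) of the Krt1 cells against 8.17% of all cells, and Krt1 in 25.2% of the 107 Krt10 cells. In the library labelled PADI4 cKO only 11 cells held Krt1. Of these, 81.8% (48.2 to 97.7%) held Krtdap, 63.6% (30.8 to 89.1%) Ly6d and 36.4% (10.9 to 69.2%) Krt10, against 38.6%, 27.3% and 7.53% of all 863 cells, whereas 45.5% (16.7 to 76.6%) held Dmkn, against 54.6%. In 49 WT fibroblasts thinned in the same way, 4.08% (0.498 to 13.98%) held Krt1, 6.12% (1.28 to 16.9%) Krt10, 10.2% Ly6d, 2.04% Krtdap and 2.04% Dmkn. The share of all cells of the 5 clusters with Krt1 (3.97%) or Krt10 (8.17%) lay within these intervals in WT, and a single UMI of Krt1, Krt10 or Ly6d does not show expression in a cell.

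Cells with the upper HF keratin Krt79 were found in both clusters. In the Pparg cluster, at 2-fold or more above the other epithelial cells, 2 of the 8 genes were higher in WT (Krt77 2.19-fold and Krtdap 2.58-fold, as were 5.41% of all genes) and 4 in the library labelled PADI4 cKO (Krt77 5.95-fold, Krtdap 7.66-fold, Dmkn 2.22-fold and Ly6d 4.63-fold, as were 6.92%). Krt1 stood at 3.31 CPM (2.16 to 4.85) in WT, below the free-RNA limit. In the other library it stood at 2.46 CPM (1.52 to 3.76), above the limit of 0.664 CPM there. Krt10 stood at 31.9 and 34.3 CPM, within its range in the other clusters. Cells of the Pparg cluster with 10 or more Krt79 UMIs held Krt1 at 3.39 and 2.33 CPM and Krt10 at 34.7 and 33.4 CPM, against 5.28 and 5.61 CPM and 31.7 and 37.1 CPM in cells with 0 Krt79 UMIs, and all these intervals overlapped. Sbsn was higher in them, at 41.1 against 25.1 CPM in WT and at 55.2 against 22.4 CPM in the library labelled PADI4 cKO. Its intervals did not overlap in the latter. Dmkn was higher too (524 against 363 CPM in WT, 522 against 376 CPM in the other library). Ly6d was lower (254 against 368 CPM and 136 against 252 CPM). For these 2 genes the intervals did not overlap in either library. Krtdap stood at 315 against 298 CPM in WT, with overlapping intervals, and at 300 against 465 CPM in the other library, without overlap. The Krt79 limits are unscaled UMIs, so the cells rich in Krt79 were also the deeper ones in this cluster. Their median was 16384.5 UMIs per cell against 8938 without Krt79 in WT, and 15440 against 10293 in the other library. Whether the differences between these cells go with Krt79 or with depth was not tested.

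In the stefin cluster, the 22 Krt79-rich cells (10 or more UMIs) of the library labelled PADI4 cKO held 550.5 CPM of Krt1, 361 CPM of Krt10 and 213 CPM of Krt77. The 79 cells with 0 Krt79 UMIs held 9.21, 35.3 and 2.30 CPM. These rich-cell levels rest on few cells. The highest cell held 110 of the 160 Krt1 UMIs, 55 of the 105 Krt10 UMIs and 36 of the 62 Krt77 UMIs, with medians of 0, 1 and 0 per cell. In WT, the summed level of Krt1 was 579 CPM (556 to 603) in the 298 cells with 0 Krt79 UMIs and 613 CPM (567 to 663) in the 69 rich cells, and that of Krt10 616 and 649 CPM. Fewer cells carried it without Krt79, where a single cell held 647 of the 2398 Krt1 UMIs and 7.05% (4.41 to 10.6%) of thinned cells had a Krt1 UMI, against 26.1% (16.3 to 38.1%) of the rich cells. For Krt10 these shares were 9.40% (6.33 to 13.3%) and 24.6% (15.1 to 36.5%). Krt77 was at 3.62 CPM (2.03 to 5.97) without Krt79 and 163 CPM (139 to 189) in the rich cells. Of the cells with 10 or more Krt1 UMIs, 14 of 27 in WT and 0 of 3 in the other library had 0 Krt79 UMIs, and the difference between the libraries was not tested.

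Over all epithelial cells, 6 of the 8 genes were lower by more than 0.5 on the log2 scale in the library labelled PADI4 cKO than in WT, as were 3.56% of the 14901 genes with at least 100 UMIs. Krt1 differed most, with 31.4 CPM in WT and 2.65 CPM in the other library (log2 ratio −3.57, −3.73 to −3.41), followed by Ly6d (164 and 49.02 CPM, −1.74), Krt77 (2.45 and 1.05 CPM, −1.22), Krtdap (123 and 66.5 CPM, −0.89), Krt10 (64.7 and 36.5 CPM, −0.82) and Lor (3.86 and 2.44 CPM, −0.66). Dmkn (304 and 227 CPM, −0.42) and Sbsn (36.9 and 33.9 CPM, −0.12) lay within 0.5. The stefin cluster was also smaller in that library, and without it the ratios were −1.63 (−1.90 to −1.38) for Krt1, −0.86 for Ly6d, −0.58 for Lor, −0.23 for Dmkn, −0.13 for Krtdap, −0.11 for Krt10, −0.10 for Sbsn and −0.03 for Krt77. Krt1 then stood at 4.04 CPM in WT, below its free-RNA limit of 14.5 CPM. In the other library it stood at 1.30 CPM, with a limit of 0.664 CPM. Of the 481 WT Krt1 UMIs left, 122 lay in a cluster of 45 cells that had 0 cells in the other library.

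Within the stefin cluster, 4 of the 7 genes with at least 100 UMIs were lower by more than 0.5 in the library labelled PADI4 cKO (9.08% of 9230 genes) and 0 were higher (5.47%). Krt1 had a log2 ratio of −2.67 (−2.90 to −2.46) and Krt10 of −2.60 (−2.82 to −2.39), Ly6d of −1.18 (−1.25 to −1.11) and Dmkn of −0.56 (−0.63 to −0.49). Krtdap (−0.42), Krt77 (−0.19) and Sbsn (0.28) lay within 0.5, and Lor (60 and 8 UMIs) had a wide interval (−2.55 to −0.21). The median of the 8 ratios, Lor included, was −0.87. It was −0.0854 with cells down to 1000 UMIs kept, where the cluster held 173 and 21 cells. Over the 9230 genes with at least 100 UMIs the median was −0.02. Of the 7 genes of the group that reached this limit, Dmkn (−0.56) had the middle ratio. A single cell held 61.8% of the Krt1 UMIs of the cluster in the library labelled PADI4 cKO and 18.4% in WT.

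In the Pparg cluster the median ratio was −0.02, beside 0.03 over all genes. 1 of 5 genes with enough UMIs was lower by more than 0.5 (Ly6d, −0.56, −0.65 to −0.46, as were 2.04% of 10053 genes) and 1 higher (Sbsn, 0.55, 0.30 to 0.80, as were 2.77%). Krtdap was 0.29 (0.21 to 0.37), Dmkn 0.04 and Krt10 0.10. With empty-droplet UMIs subtracted Krt10 was 1.19 and Krt1, whose WT level lay below the free-RNA limit, 4.87. Krt1 (−0.42, −1.33 to 0.46), Krt77 and Lor had intervals that included 0.

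**Figure D4:**
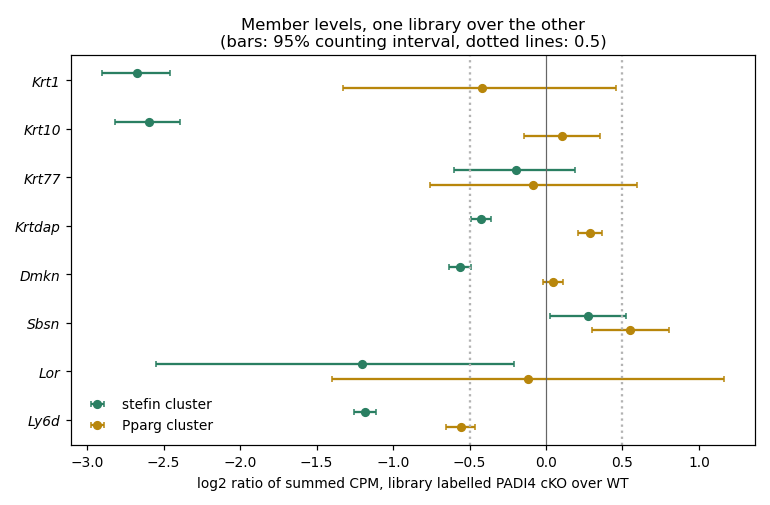
Log2 ratio of summed CPM, library labelled PADI4 cKO over WT, of each gene in the stefin cluster (green) and the Pparg cluster (yellow), with 95% counting intervals and dotted lines at 0.5 in each direction. Krt1 and Krt10 lie at −2.67 and −2.60 in the stefin cluster and at −0.42 and 0.10 in the Pparg cluster.

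The sex-linked sets split these differences. Of the WT cells with Xist alone, 2.20% (1.62 to 2.92%) were in the stefin cluster, of those with Y-linked UMIs alone 9.63% (8.81 to 10.5%), and of cells with Xist alone in the PADI4 cKO library 2.26% (1.93 to 2.63%). Krt1 in the stefin cluster stood at 68.6 CPM (50.4 to 91.2) in the 47 WT cells with Xist alone, at 482 CPM (466 to 499) in the 460 with Y-linked UMIs alone and at 66.1 CPM in the other library. Between cells with Xist alone, the log2 ratio of the libraries was −0.06 for Krt1, 0.32 for Krtdap, 0.14 for Ly6d and −0.29 for Dmkn. For Krt10 it was −2.02, with 292 CPM (253 to 335) in WT and 71.7 CPM in the other library, but only 2 WT cells with Xist alone had 10 or more Krt10 UMIs. Of the WT cells with 10 or more Krt1 UMIs, 22 held Y-linked UMIs alone and 1 Xist alone. The Krt1 levels of cells with Xist alone also rest on few cells. They come from 47 UMIs in WT and 178 in the other library, where 1 cell held 110. Sex, animal and genotype cannot be told apart here.

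**Figure D5:**
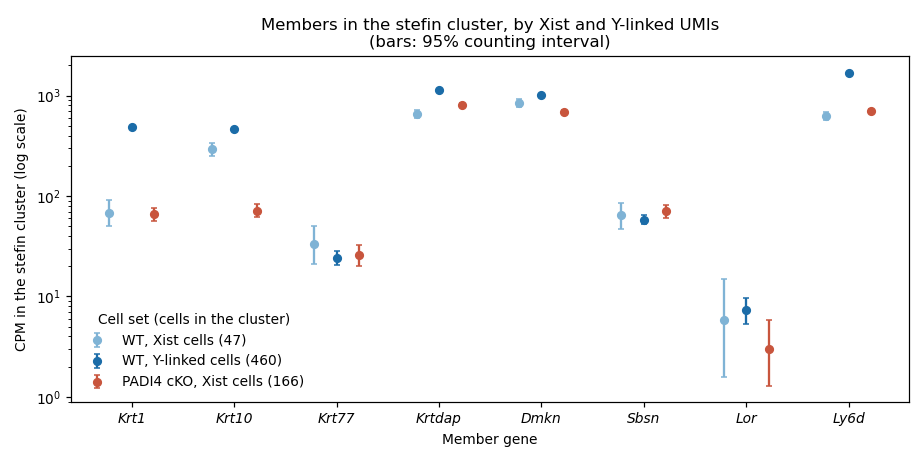
CPM of each gene in the stefin cluster (log scale) for WT cells with Xist alone (47 cells, light blue), WT cells with Y-linked UMIs alone (460 cells, dark blue) and cells with Xist alone of the library labelled PADI4 cKO (166 cells, red), with 95% counting intervals. Krt1 and Ly6d of the WT cells with Xist alone lie near the other library (68.6 and 66.1 CPM, 632 and 698 CPM), and Krt10 does not (292 and 71.7 CPM). The Krt1 and Krt10 levels of cells with Xist alone rest on few cells.

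Of 64 other cornification genes, listed for envelope proteins, their crosslinking enzymes, barrier lipids, proteases and regulators, 18 reached 5 CPM in the stefin cluster of both libraries and 30 had 0 UMIs there. Late genes of the granular layer had few UMIs. The 21 late cornified envelope (Lce) genes together had 4 and 2 UMIs in all epithelial cells, and the filaggrin family genes Flg, Flg2 and Hrnr 4 and 1, beside 155 and 118 for the involucrin gene Ivl. At 2-fold or more above the other epithelial cells in both libraries were 7 of the 64 genes. Of all genes, 6.61% were so in WT and 5.87% in the other library, each taken alone. The 7 were the keratin Krt80, the lipid transporter Abca12, the desquamation proteases Klk5, Klk7 and Klk8, the protease Casp14, and Ly6g6c. Klk5 (54 and 23 UMIs in the stefin cluster) and Casp14 (46 and 5) had few UMIs. Of 17 with enough UMIs, 5 were lower and 8 higher by more than 0.5 in the library labelled PADI4 cKO (9.08% and 5.47% of all genes), with a median log2 ratio of −0.10. The plakin genes Ppl (106 and 60.2 CPM, −0.81) and Evpl (29.4 and 19.3 CPM, −0.60), which build the envelope scaffold, were lower. Prdm1 (18.8 and 56.9 CPM, 1.59), Abca12 (18.8 and 35.7 CPM, 0.92), the transglutaminase gene Tgm5 (40.1 and 75.1 CPM, 0.91), Klk7 (17.5 and 32.0 CPM, 0.87) and Grhl1 (46.8 and 68.0 CPM, 0.54) were higher. Krt80 (30.97 and 24.2 CPM, −0.35) lay within 0.5.

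Over the 38 profiles of 19 clusters in 2 libraries, which share cells' libraries and depth, the genes most like each one by Pearson r of log2(CPM + 1) were named among 12091 genes. For Krt1 these were Stfa1 (0.876), Stfa3 (0.844) and Krt10 (0.828), and for Krt10 they were Krt1 (0.828), Gna14 (0.736) and Stfa1 (0.725). Krt77 had Clca3a1 (0.913) and Clca3a2 (0.897), which share 28.5% and 33.9% of their 31-base stretches with other genes and are uncertain, and Stfa1 (0.871). Krtdap had Abhd14b (0.918), Mall (0.906) and Stap2 (0.873), Dmkn had Mpp5 (0.927), Nipal2 (0.910) and Abhd14b (0.907), Sbsn had Psapl1 (0.874), Cds1 (0.857) and Bcl9l (0.844), Ly6d had Nebl (0.860), Ankrd22 (0.828) and Tmem51 (0.811), and Lor, with few UMIs, had Gm9908 (0.733), Rab27b (0.699) and Sept10 (0.660). Among the 8 genes, Krtdap and Dmkn had an r of 0.837 and Dmkn and its neighbor Sbsn of 0.780, whereas Krt1 and Sbsn had 0.235.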

How the data were processed

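UMI counts per gene and droplet barcode were used as the authors deposited them, made with Cell Ranger 7.1.0 per the file header and mm10 per the labels, without normalization and with empty droplets included (143938990 and 143945294 UMIs in all). The limits of the study were applied, namely between 2000 and 60000 UMIs and between 1000 and 8000 genes per droplet, no more than 20% mitochondrial or 1% hemoglobin UMIs, and a ribosomal share within the 5th to 99th percentile. Both libraries were clustered together in Scanpy 1.11.5 (1000 variable genes, 50 components, 15 neighbors, Leiden resolution 1), with the cell cycle regressed out and the 8 genes, other cornification genes and sex-linked genes left out. Scrublet called 1 WT cell at its automatic threshold, so 0.198, found for the library labelled PADI4 cKO, served for each library (296 cells called in each), and those cells were kept. UMIs were summed per cluster and library as CPM, with exact Poisson intervals, exact binomial intervals for shares and conditional binomial intervals for log2 ratios (0.5 UMI added to each sum). Free RNA was put at 7.78% and 7.64% of UMIs from collagen genes, the share used for the limits given here. Hemoglobin genes gave 12.4% and 2.73%, and the number of clusters above a limit depends on this choice. The ratio and interval were checked on simulated data. The members, lists and named genes (all 8 members, the 10 other cornification genes with the highest CPM in both libraries, and 3 most like genes for each member) were chosen with earlier results of these data known. Of the 10 other genes, 2 are not reported here. Alternatives were other UMI limits, resolutions, gene sets for clustering, doublets left out, cells with Xist alone, subtraction of empty-droplet UMIs, other scaling, thinning, basal indices, bins and detection limits. The split by Krt79, the order within the stefin cluster, the doublet threshold and the collagen share were chosen after seeing the data.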

Additional observations from a re-analysis of the deposited data

Results flagged for a closer look

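Krtdap was lower in the stefin cluster and higher in the Pparg cluster of the library labelled PADI4 cKO than in WT (log2 ratios −0.42 and 0.29), a difference between the clusters of −0.71 on the log2 scale. It was picked out because the counting intervals of both ratios lie on opposite sides of 0, and with 1 library per genotype the difference was not tested. The contrast did not hold under several alternatives. With cells down to 1000 UMIs kept the ratios were 0.60 and −0.39, with the 8 genes kept for clustering −0.03 and −0.38, and in cells with Xist alone 0.32 and 0.01. At resolution 0.5 both clusters fell into one group, at −0.67.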

How the results depend on the processing

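No paired analysis was possible because each genotype has 1 library. The number of genes highest in the stefin cluster in both libraries (5) was 0 with a limit of 1000 UMIs per cell, 0 with the 8 genes kept for clustering and 0 in cells with Xist alone. In each of these the cluster had fewer than 50 cells in 1 library (21, 43 and 47) and was left out by the minimum, and with it kept, a choice made after seeing the data, the number was 6, 7 and 5. The number higher in the least basal bin in both libraries (0) was 1 with the 8 genes kept for clustering (Sbsn), 4 with the basal list without keratins, 7 with the ratio of the basal to the suprabasal list, and 7 within the stefin cluster. The median ratio in the stefin cluster (−0.87) was −0.0854 at 1000 UMIs, where the cluster held 173 and 21 cells, and −0.18 in cells with Xist alone. It was −1.02 in place of −0.02 in the Pparg cluster at resolution 0.5, where both clusters fell into one group of 1128 and 767 cells. The share of co-detection of Krt1 with Krt10 (49.2%) was 35.7% in cells with Xist alone and 65.6% at 2 or more UMIs. Dmkn in the stefin cluster reversed to 0.10 at 1000 UMIs, and Ly6d to 0.14 in cells with Xist alone. Ratios within 0.5 changed sign too, at 1000 UMIs Krtdap to 0.60 and Krt77 to 1.74, and at 4000 UMIs Sbsn to −0.82. The cause of the other changes was not tested. Over 10 alternatives the ratio in the stefin cluster ran from −3.65 to −0.06 for Krt1 and from −2.95 to −1.89 for Krt10. The other alternatives kept the direction and side of the threshold or stayed within the allowed range, namely 7 of 10 for the levels, 11 of 15 for the order, 8 of 10 and 9 of 10 for the median ratios in the stefin and Pparg clusters and 7 of 9 for co-detection. Of 80 ratios of single genes under alternatives, 41 in the stefin cluster and 31 in the Pparg cluster moved beyond their counting interval. Few UMIs limit Lor (60 and 8 in the stefin cluster).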

Other observations

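A cluster of 45 WT cells, led by Lsamp, Meis2 and Kcnip4 and with 0 cells in the other library, held Krt1 at 134 CPM (112 to 160.5) in 40% of its cells, with 61 of the 122 Krt1 UMIs in 1 cell, Krtdap at 592 CPM and Dmkn at 603 CPM, but Krt10 at 30.9 CPM (20.5 to 44.6), its level elsewhere in the epithelium. Krt77 had 0 UMIs there, which allows up to 4.07 CPM at the 95% bound. A cluster led by Krt6a and Wfdc18, with 64 and 44 cells of which 26.6% and 52.3% were called doublets, held Sbsn at 173 and 93.9 CPM. A cluster of 40 and 51 cells led by Smoc1 and Zfpm2, with 7 of 10 upper HF markers raised, held Ly6d at 488 and 358 CPM.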
